A study of Rattus norvegicus with 21 samples.

Results

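The 10 sham libraries of the series fall into separate runs of animal numbers, and they are compared here as sham 46 to 50 (5 libraries) against sham 21, 22, 24, 73 and 74 (5 libraries), out of 21 libraries in all. All are RNA-seq libraries of polyadenylated RNA from islets of Langerhans of Lewis rats, described in the labels as 4-5 week animals and taken at week 4 after a sham operation, so the pancreas they came from was not resected. The study's other group, used here only for values set beside these, had 90% partial pancreatectomy (PX), with 5 libraries numbered PX 36 to 44 and 6 numbered PX 57 to 70. The labels give no date, isolation or sequencing batch. The numbers are therefore used only as numbers, and what else differed between the runs cannot be told apart from them. Average blood glucose before sacrifice (BG, unit not given in the labels) was 92.8 ± 6.61 (SD, n = 5) in sham 46 to 50 and 96.6 ± 5.32 (n = 5) in the other 5 (two-sided exact permutation p = 0.421, adjusted over 6 library measures 0.61).

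Islets are endocrine cell clusters that make up a small part of the pancreas. Most of the gland is acinar tissue, whose cells make digestive enzymes as inactive precursors, pack them into zymogen granules and release them into the ducts. Isolated islets keep some acinar tissue attached, and because acinar cells devote most of their messenger RNA to a few enzymes, a small amount of that tissue can fill a large part of a library. In bulk libraries, more acinar cells and more acinar RNA per cell cannot be told apart.

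The acinar share was far larger in every library of sham 46 to 50. The 48 measured genes of the acinar lists took 18.4% of all counts in sham 46, 20.6% in sham 47, 24.3% in sham 48, 21.6% in sham 49 and 13.4% in sham 50, a mean of 19.7% ± 4.11 (SD, n = 5). They took 6.32% in sham 21, 0.694% in sham 22, 1.22% in sham 24, 2.35% in sham 73 and 2.08% in sham 74, a mean of 2.53% ± 2.22 (SD, n = 5). No library of one set reached the other set, and sham 21 was the closest. This difference was known when the sets were proposed, so it is described without a test. Total counts were 5287740 to 11266015 in sham 46 to 50 and 4695195 to 8907499 in the other 5 (exact permutation p = 0.413, adjusted 0.61). Ins1 and Ins2, the rat insulin genes, took 10.5% ± 2.40 and 11.7% ± 2.81 of counts (SD, n = 5 each; exact permutation p = 0.508, adjusted 0.61).

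Mitochondrially encoded genes took less of the counts in sham 46 to 50, at 3.56% ± 1.30 against 5.12% ± 0.681 (SD, n = 5 each). The sets did not overlap, with a highest value of 4.55% against a lowest of 4.63%; the two-sided exact permutation p of 0.00794 is the smallest that 5 against 5 can give, and it was 0.0476 after adjustment over 6 measures. The difference of -1.56 percentage points was -1.03 without sham 46, and with any 1 library left out the adjusted p was 0.0952, the smallest that 4 against 5 allows. Counted against all reads outside the acinar lists, the shares were 4.44% ± 1.62 and 5.25% ± 0.621, and the sets overlapped, with ranges of 1.74% to 5.73% and 4.81% to 6.29%. Sham 46 was the low value.

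Sham 46 stood apart from the other libraries. Among 8872 genes with a mean of at least 10 CPM (counts scaled to a library of 1000000 reads after TMM normalisation) over the sham libraries, 87 were at least 2-fold above and 97 at least 2-fold below every other sham library in sham 46. In the 9 others, 0 genes were 2-fold above all the rest and 0 to 8 were 2-fold below. Sham 21 differed from its own set in another way, as the only one of the 5 with an acinar share above 2.35%. For some results that rest on either library, values are also given without it.

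**Figure D1:**
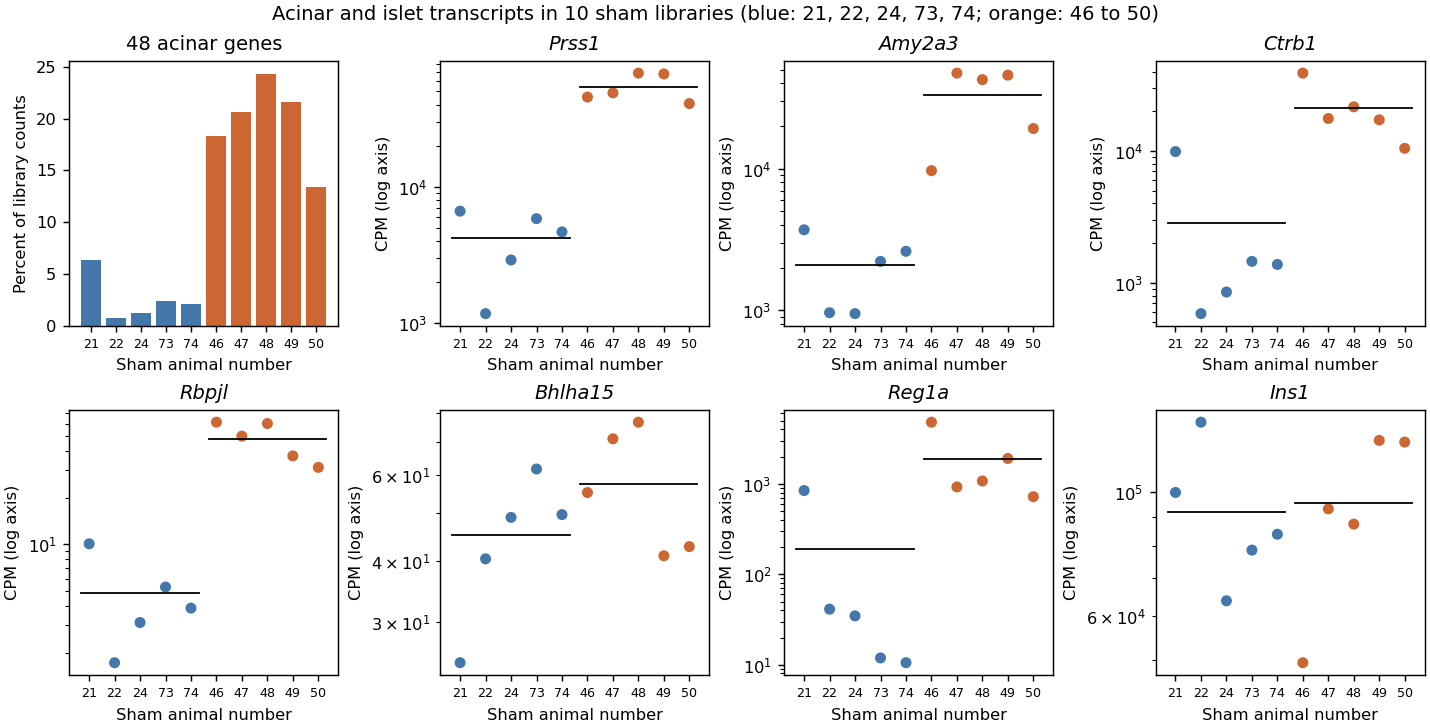
The first panel plots the percent of each library's counts on the 48 acinar genes, and the other panels plot normalised counts (CPM, log axis) of single genes, with 1 point per sham animal and a black line at each set's mean. Prss1, Amy2a3, Ctrb1 and Rbpjl separate the sets, Reg1a does so only apart from sham 21, and Bhlha15 and Ins1 overlap.

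Acinar enzyme genes are switched on together by PTF1, a complex in which Ptf1a and Rbpjl bind an E-box and, a short distance away, a TTTCCC element. Promoters of 3 enzyme genes are shown as examples whose values differ across libraries. Each is the RefSeq sequence of the GRCr8 build from 250 bases before to 50 bases after the annotated start, read along the gene. Capitals mark CACCTG and TTTCCC where both were found as a pair.

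Ctrb1, chr19:56566929-56567228, minus strand: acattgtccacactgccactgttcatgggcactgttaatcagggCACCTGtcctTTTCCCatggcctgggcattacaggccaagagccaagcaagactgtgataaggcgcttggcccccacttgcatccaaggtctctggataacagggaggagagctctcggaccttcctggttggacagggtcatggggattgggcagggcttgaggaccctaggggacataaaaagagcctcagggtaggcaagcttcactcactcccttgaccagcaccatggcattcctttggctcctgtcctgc
Cela1, chr7:133665012-133665311, minus strand: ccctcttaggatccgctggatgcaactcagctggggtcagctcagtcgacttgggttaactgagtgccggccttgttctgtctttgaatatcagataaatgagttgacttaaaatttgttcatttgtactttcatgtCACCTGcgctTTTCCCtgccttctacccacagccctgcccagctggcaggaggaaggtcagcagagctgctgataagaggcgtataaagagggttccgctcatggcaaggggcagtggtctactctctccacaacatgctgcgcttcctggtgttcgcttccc
Amy2a3, chr2:204014363-204014662, minus strand: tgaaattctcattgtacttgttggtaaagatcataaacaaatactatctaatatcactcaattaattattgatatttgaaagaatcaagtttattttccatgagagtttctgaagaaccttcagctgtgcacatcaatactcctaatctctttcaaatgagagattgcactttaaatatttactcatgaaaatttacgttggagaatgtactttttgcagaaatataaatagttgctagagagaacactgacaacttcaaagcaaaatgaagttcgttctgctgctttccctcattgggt

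In Ctrb1 and Cela1, CACCTG and TTTCCC stood 4 bases apart, with the E-box starting 206 and 113 bases before the gene's start. The Amy2a3 window held no CACCTG. Over both strands, an E-box of the form CANNTG within 30 bases of TTTCCC was found in 8 of the 39 acinar-list promoters that could be matched (20.5%) and in 6.71% of all 27457 promoters of the same length. The 8 were Cel, Cela1, Ctrb1, Cuzd1, Pla2g1b, Prss2, Slc39a5 and Tmed6. A match is a description of these letters only, and a window with no match says nothing about the factor.

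Gene by gene, 53 acinar genes were listed, 48 were matched in the count table and 45 passed the filter on low counts. The other 3 (Chrm1, Gnmt and Dnase1) stayed below it. Of the 45, 38 would have passed in sham 21, 22, 24, 73 and 74 alone, so 7 entered through the set where they were high. These 7 were Rnase1, Spink1, Ptf1a, Gata4, Aqp8, Tmed11 and Tmed6. Log2 fold changes of sham 46 to 50 over the other 5 ran from 0.21 to 5.20, with a median of 3.06 against 0.01 for all 13020 genes tested. All 5 libraries of sham 46 to 50 were above all 5 others for 37 of the 45 acinar genes, beside 2.78% of all genes tested. In edgeR's quasi-likelihood test 30 of the 45 passed an adjusted p of 0.05, beside 1.31% of all genes called higher. That count was 17 without sham 49 or 73, 18 without sham 74, 19 without sham 46 or 48 and 40 without sham 21. These counts follow from how the sets were proposed and nothing is read from them. The order of genes within the list is what the values below add, apart from the places of those 7. This order also changes when sham 21 is left out.

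Trypsinogen genes, the precursors of the protease that activates the other enzymes, did not differ alike between the sets with all 10 libraries. Prss1 was 45502, 48854, 68228, 67247 and 40750 CPM in sham 46 to 50, against 6601, 1167, 2892, 5819 and 4651 in sham 21, 22, 24, 73 and 74. Its log2 fold change was 3.68 ± 0.40 (SE) and 3.90 without sham 21. Every library of the first set was at least 6.17-fold above every library of the second. Prss2 was 8206, 4086, 6641, 4657 and 2982 CPM against 4595, 165, 238, 570 and 352, so that sham 21 lay inside the range of sham 46 to 50. Its log2 fold change was 2.17 ± 0.92 with sham 21 and 4.00 without it. Try10 gave 1.76 ± 1.25 and 5.06 without sham 21, whose 202 CPM lay above 4 of the 5 libraries of the other set. Prss3 and Try5 gave 2.22 ± 0.76 and 2.68 ± 0.74, and 3.49 and 3.79 without sham 21. Without that library Prss1, Prss2, Prss3 and Try5 thus lay from 3.49 to 4.00. Trypsinogen genes are near-identical copies, so how reads were divided among them is uncertain.

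The other proteases cut within or at the ends of proteins and lay mostly near a log2 fold change of 3 with all 10 libraries. Ctrb1, chymotrypsinogen, was 39037, 17657, 21656, 17257 and 10489 CPM against 9906, 583, 851, 1454 and 1378, a log2 fold change of 2.90 ± 0.81 and 4.31 without sham 21. Its lowest value in the first set, sham 50, was just above sham 21. Cela1, an elastase, was 5187 to 9155 CPM against 176 to 1908, with a log2 fold change of 3.38 ± 0.58. Cpb1, carboxypeptidase B, was 7704 to 16773 against 415 to 4840 CPM, with 2.93 ± 0.60 and 3.84 without sham 21.

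Enzymes that digest lipid, starch and RNA ran from a log2 fold change of 2.92 to 5.20, and the proteases from 1.76 to 3.68; these ranges overlap and the groups were not tested against each other. Rnase1, the pancreatic ribonuclease, was 112, 93, 115, 113 and 34 CPM in sham 46 to 50 and 6.65, 0.266, 0.553, 2.4 and 1.66 in the other 5. This was the largest log2 fold change of the acinar lists, 5.20 ± 0.61, and sham 50 was its low value in the first set. Rnase1 passed the filter on low counts only through sham 46 to 50, so nothing is read from its rank. Amy2a3, pancreatic amylase, was 9668, 47239, 42476, 45714 and 19181 CPM against 3695, 960, 946, 2211 and 2604, or 3.98 ± 0.53. Sham 46 had the least amylase of its set although its Ctrb1 was the highest of all 10. Amy1a, a near-identical neighbour of Amy2a3, gave 4.47 ± 0.61. Pnlip, pancreatic lipase, was 9566 to 20862 against 379 to 3808 CPM, with 3.44 ± 0.58, and Cel, the bile salt dependent lipase, gave 3.31 ± 0.52.

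Granule proteins ran from 1.87 to 4.39. Cuzd1, a zymogen granule membrane protein, was 119 to 454 CPM against 4.43 to 29.1, with a log2 fold change of 4.39 ± 0.56. Zg16, a granule lectin, was 436 to 977 against 22.7 to 147 CPM, with 3.80 ± 0.55, and Gp2, the main granule membrane glycoprotein, gave 3.26 ± 0.61. Without sham 21, Zg16 and Gp2 gave 4.51 and 3.95. Spink1, the secretory trypsin inhibitor, was 46.6, 73.3, 85.1, 72.1 and 34.1 CPM against 65.2, 1.2, 3.69, 5.69 and 6.1. Here too sham 21 lay among sham 46 to 50; the log2 fold change was 1.87 ± 0.89, and 3.91 without sham 21.

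Transcription factors of acinar cells covered a wide range. Ptf1a was 2.57 to 7.15 CPM in sham 46 to 50 and 0 to 1.39 in the other 5, with 3.32 ± 0.58. Ptf1a passed the filter on low counts only through sham 46 to 50. Its partner Rbpjl was 61.3, 49.8, 60.1, 37.2 and 31.3 CPM against 10.1, 1.73, 3.13, 5.31 and 3.88, with 3.26 ± 0.37 and no overlap. Nr5a2, a nuclear receptor of acinar genes, gave 1.94 ± 0.35, and Gata4 1.497 ± 0.34. Bhlha15 (MIST1), which scales up the secretory machinery, was 40.9 to 76.7 CPM against 24.8 to 61.6, with 0.34 ± 0.23. Bhlha15 was lowest in sham 21, the library of its set with the most acinar RNA.

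The list of receptors, channels and secretory machinery held both ends. Aqp8, a water channel, was 14.8 to 45.7 CPM against 0.398 to 3.22, with 4.27 ± 0.42. Tmed11, a cargo receptor of the early secretory pathway, gave 4.28 ± 0.53. Both passed the filter on low counts only through sham 46 to 50. The zinc transporter Slc39a5 was 51.4, 41.7, 54.4, 49.9 and 39.4 CPM against 11, 6.91, 10.5, 10.5 and 9.98 CPM, with 2.27 ± 0.16 and no overlap. High levels in both sets and small differences marked Cckar, the cholecystokinin receptor, at 99.3 to 151 against 75.1 to 107 CPM (0.49 ± 0.14) and Rab3d, a granule GTPase, at 154 to 189 against 127 to 153 CPM (0.34 ± 0.09). The amino acid transporter Slc16a10 gave 0.21 ± 0.15, and reached -0.03 against sham 73 and 74 alone. Libraries with little acinar RNA also held these transcripts: sham 22 had 0.694% acinar counts, 101 CPM of Cckar and 40.4 CPM of Bhlha15.

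**Figure D2:**
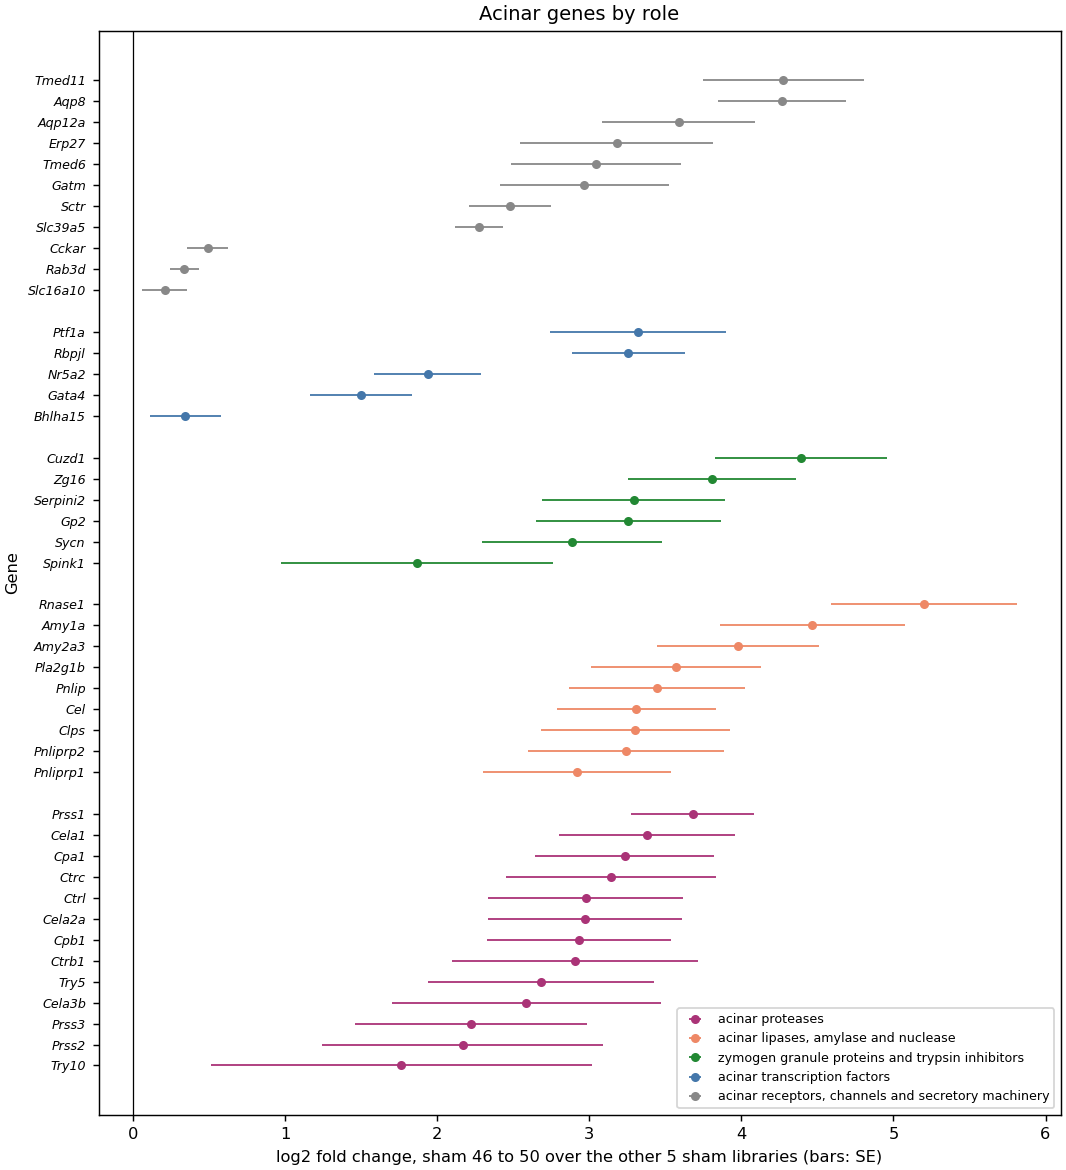
Log2 fold change of 44 of the 45 tested acinar genes in sham 46 to 50 over the other 5 sham libraries, grouped and coloured by role, with bars of 1 standard error. Most enzymes lie near 3, Rnase1 reaches 5.20, and Bhlha15, Cckar, Rab3d and Slc16a10 lie below 0.5.

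Per kilobase of gene length, so that genes can be compared with each other, high acinar levels in sham 46 to 50 were those of Prss1 at 67309 RPKM (CPM divided by length in kilobases), Ctrb1 at 24085 and Amy2a3 at 10592. In the other 5 the means were 5256 for Prss1, 3218 for Ctrb1 and 672 for Amy2a3. Without sham 21 the means of the other 4 were 4518 for Prss1, 1211 for Ctrb1 and 542 for Amy2a3, so the Ctrb1 mean of that set rests largely on sham 21. Prss1 was above Ctrb1 and Amy2a3 in both sets, with and without sham 21.

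The make-up of the acinar counts did not follow the sets. Chymotrypsins made up 20.1% of acinar counts in sham 21 and 23.8% in sham 46, against 9.05% to 11.7% in the other 8 libraries. Amylases made up 6.18% in sham 21 and 5.19% in sham 46, against 9.08% to 20.6% in the other 8. Sham 21 and sham 46 belong to different runs, with 6.32% and 18.4% acinar counts. The shares of trypsinogens, chymotrypsins, elastases, carboxypeptidases, lipases and amylases overlapped between the sets in all 6 classes. The mean share of amylases was 14.6% ± 5.80 in sham 46 to 50 and 11.1% ± 3.70 in the other 5, and that of lipases 16.1% ± 1.56 and 15.7% ± 0.464 (SD, n = 5 each).

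**Figure D3:**
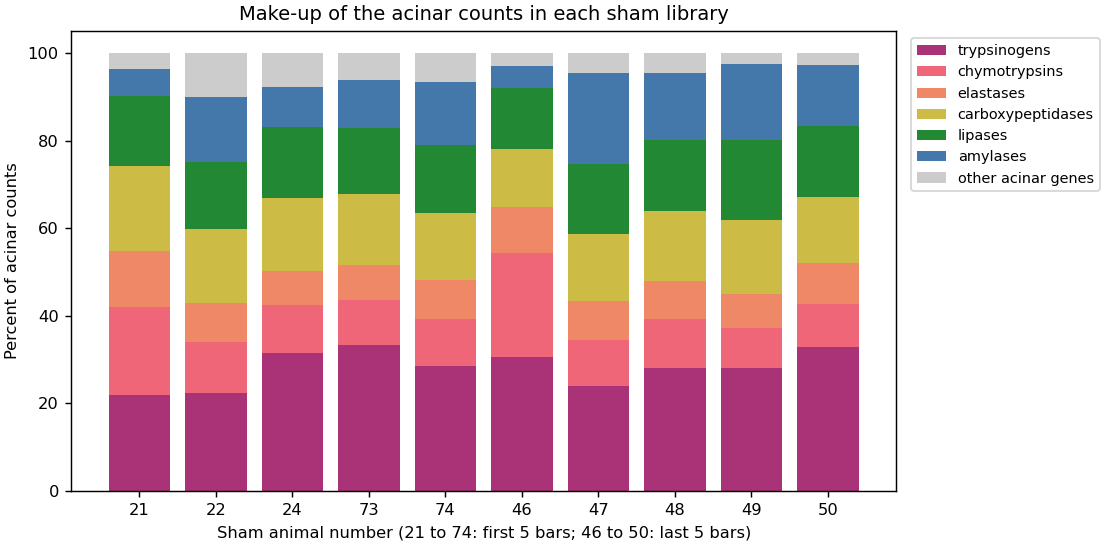
Percent of each sham library's acinar counts on 6 enzyme classes and on the other acinar genes, 1 stacked bar per animal. Sham 21 and sham 46 carry the widest chymotrypsin segments (20.1% and 23.8%) and the narrowest amylase segments (6.18% and 5.19%).

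Across all genes, edgeR's quasi-likelihood test with Benjamini-Hochberg adjustment called 171 genes higher in sham 46 to 50 (1.31% of 13020 tested) and 13 lower (0.0998%). At an unadjusted p under 0.05 there were 1786 of the 13020, counting both directions. Of the 171, 30 were on the acinar lists and 141 were not, so most genes called with the high acinar runs were outside those lists. Of the 141, 90 would have passed the filter on low counts in sham 21, 22, 24, 73 and 74 alone; the others entered through the set where they were high. Scaling by library totals alone in place of TMM factors moved the median of all genes to -0.30 and gave 171 higher and 2193 lower, so that 7.23% of calls were higher in place of 92.9%. Directions below are therefore relative to the bulk of genes. With the acinar score (mean log2 CPM of 20 enzyme and granule genes) added as a covariate, 0 genes were called in either direction, with 444 at an unadjusted p under 0.05; the score ran from 11.5 to 12.7 in sham 46 to 50 and from 7.24 to 10.5 in the other 5, so the sets do not overlap on it.

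The genes named here had the highest log2 fold changes off the acinar lists among called genes averaging at least 10 CPM. Tff2, a trefoil peptide of mucous secretions, was 276, 398, 476, 464 and 290 CPM against 29.5, 9.69, 12.9, 28.8 and 22.4. Tff2 rose 18.3-fold (log2 4.19 ± 0.32 SE; edgeR adjusted p = 4.18e-05), and the lowest library of one set was 9.37-fold above the highest of the other. Ptger3, a prostaglandin E2 receptor, was 29 to 57.9 CPM against 1.29 to 5.79 and rose by a log2 of 3.57 ± 0.36 (adjusted p = 0.000224). P2rx1, an ATP-gated channel, was 43.6 to 74 against 4.12 to 21.1 CPM and rose by 2.89 ± 0.41 (adjusted p = 0.00345). Hpn, the membrane protease hepsin, rose by 3.27 ± 0.36, and Serpinb1a, a protease inhibitor, by 3.10 ± 0.45. Prss3b, a trypsinogen copy that was not on the lists, rose by 3.34 ± 0.50 to 11848 CPM, and Hsd17b13, a lipid droplet enzyme, by 3.27 ± 0.61. Trim50, a ubiquitin ligase, rose by 2.80 ± 0.32. Of these genes only Hsd17b13 missed the threshold when single libraries were left out (sham 24, 48, 49, 73 or 74, adjusted p up to 0.09). Hsd17b13 and Hpn passed the filter on low counts only through sham 46 to 50.

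A list of amino acid handling genes, put together for acinar tissue and so not independent of the acinar lists, was also examined. Of its 15 tested genes, 14 of which would have passed the filter in the other 5 libraries alone, 7 rose and 0 fell, with a median log2 fold change of 0.59 over the 15, beside 1.31% called higher and a median of 0.01 among all genes. One of the 7, Gatm, is also on the acinar lists, and another, Cth, passed the filter only through sham 46 to 50. The 7 that rose were synthesis and breakdown enzymes. Cth and Cbs, which turn homocysteine into cysteine, rose by 2.86 ± 0.35 and 2.74 ± 0.45. Phgdh and Psat1, which open the serine pathway, rose by 1.95 ± 0.24 and 1.09 ± 0.22, and Gamt, which completes creatine after Gatm, rose by 1.81 ± 0.26. Bcat2, the mitochondrial branched-chain aminotransferase, rose by 0.71 ± 0.14. The call for Bcat2 was lost without sham 48 or 73 (adjusted p up to 0.055), and that for Psat1 without sham 22, 24, 47, 48, 49, 73 or 74 (up to 0.09). The amino acid transporters Slc7a5 (0.12), Slc3a2 (0.30) and Slc38a2 (-0.08) did not pass the test. Slc7a7, another transporter of the list, gave 0.59 ± 0.21 with no overlap between the sets (edgeR adjusted p = 0.237). Off the list, the glutamine transporter Slc38a3 was called higher with each library left out in turn (log2 1.85 to 2.14).

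Metallothioneins are small metal-binding proteins. Mt2A was 2.15 to 6.07 CPM in sham 46 to 50 and 0.126 to 0.751 in the other 5, a log2 fold change of 3.45 ± 0.42. It passed the filter on low counts only through sham 46 to 50, so no call is read from it. On the antioxidant and metallothionein list, 0 of the other 11 genes tested were called in edgeR; over all 12, Mt2A included, 2 were higher and 1 lower at an unadjusted p under 0.05, and DESeq2 called 2 higher and 1 lower. Mt1, named after its values were seen, rose by 2.56 ± 0.20, from 4.37 to 26 CPM on average. The copies are alike in sequence, so reads may be shared between them.

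Secretory pathway genes, on which acinar and beta cells both rely, had small differences that were mostly positive. Of 26 endoplasmic reticulum chaperone and unfolded protein response genes, 2 rose, beside 1.31% of all genes called higher. They were Sel1l and Herpud1, both parts of protein disposal from that compartment. Sel1l was 642, 508, 570, 466 and 413 CPM against 326, 304, 285, 289 and 276, and rose by a log2 of 0.81 ± 0.12 (adjusted p = 0.00291) with no overlap. Herpud1 rose by 0.52 ± 0.12. Hspa5 (BiP), the main chaperone, was 1861 to 3365 CPM against 1884 to 2490, with a log2 fold change of 0.13 ± 0.17 that was -0.04 without sham 46 and -0.16 under library totals. Xbp1 gave 0.51 ± 0.15 (adjusted p = 0.126). Of 24 translocon and transport genes, 1 rose, Ssr2, by 0.54 ± 0.12. Of these 24, 23 had a positive log2 fold change, with a median of 0.32. Library totals moved the median of all genes to -0.30, so a list median of this size depends on the scaling. At an unadjusted p under 0.05, 11 were higher and 0 lower, beside 1786 of all 13020 genes in both directions. No overlap between sets was found for 4 of the 24, beside 2.78% of all genes, and DESeq2 called 5 higher. Calls for Herpud1 and Ssr2 were lost under library totals, with values of 0.21 and 0.23, and when most single libraries were left out: each of 8 for Herpud1 (adjusted p up to 0.117) and each of 6 for Ssr2 (up to 0.121). Xbp1 passed without sham 46 (adjusted p = 0.013).

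**Figure D4:**
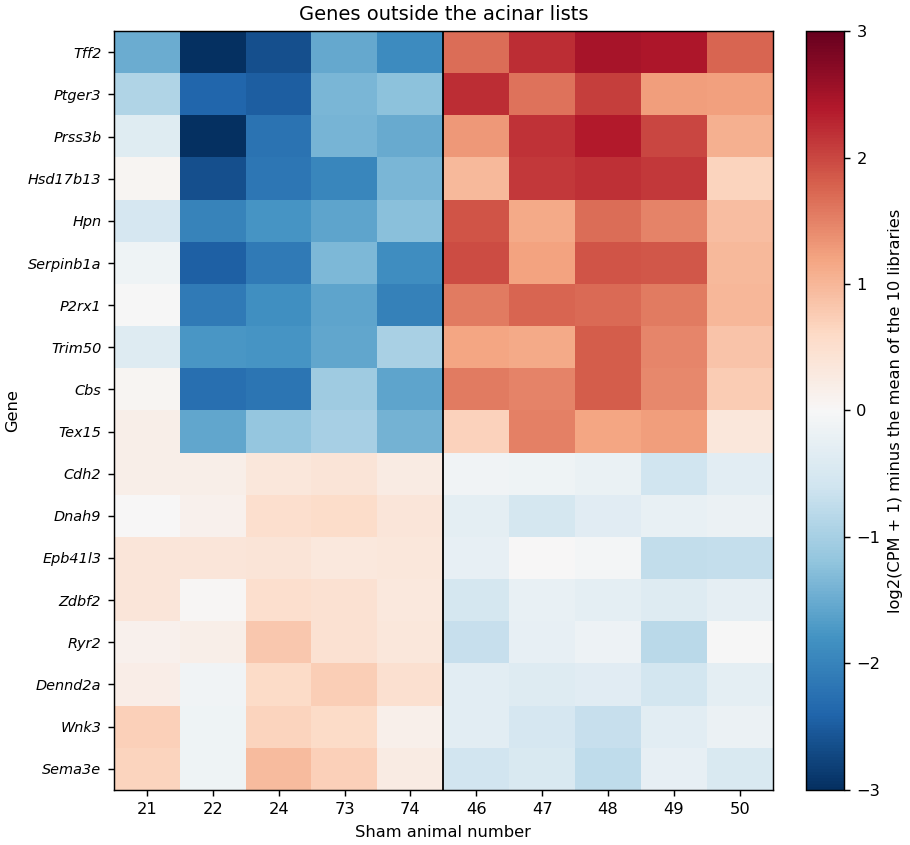
Colours show log2(CPM + 1) minus the mean of the 10 sham libraries for the named genes outside the acinar lists, ordered by fold change, with the line separating the sets. Sham 21 is the palest of its set for Hsd17b13, Cbs, Serpinb1a, P2rx1 and Tex15, and the 8 lower genes show smaller differences than the 10 higher ones.

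Within the sets, libraries with more acinar RNA also had more of some of these transcripts. The slope of each gene on the acinar score was fitted with the run as a term, so that differences between the sets did not enter; a slope of 1 means that a gene doubled for each doubling of the score genes. edgeR called 45 slopes above 0 (0.346% of 13020) and 0 below (with 122 negative slopes at an unadjusted p under 0.05). Of the 45, 16 were genes of the score itself, 13 were among the 25 other acinar genes tested, and 16 were off the lists. Off the lists, Cbs had a slope of 0.88 ± 0.10 (adjusted p = 0.000408), Hsd17b13 1.22 ± 0.13, Prss3b 0.90 ± 0.11, Serpinb1a 0.82 ± 0.13, P2rx1 0.72 ± 0.10, Cth 0.68 ± 0.13, Tex15 0.68 ± 0.12 and Trim50 0.59 ± 0.11. Tff2 had 0.52 ± 0.11 and did not pass (adjusted p = 0.0705). Of the 45, 30 were also among the 171 genes called higher in sham 46 to 50 (1.31% of all genes tested). This overlap includes genes of the acinar lists, such as Cela1 and Pnlip, which were high by how the sets were proposed. It is therefore a description only. Without sham 21, 18 slopes were called in place of 45, and Cbs, Hsd17b13, Serpinb1a, P2rx1, Cth, Tex15 and Trim50 no longer passed, while Prss3b did. The slopes themselves stayed about as large for Cbs (0.85), Hsd17b13 (1.31), Cth (0.77) and Trim50 (0.59) and were smaller for P2rx1 (0.39), Serpinb1a (0.66) and Tex15 (0.56). Other libraries also ended calls: Cth passed only without sham 46 and Trim50 only without sham 46 or 73, while Tex15 also missed without sham 22, 48 or 50 and Serpinb1a without sham 22.

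Islet genes moved far less than the acinar share did. Of 14 hormones and granins tested, 0 were called in edgeR (3 at an unadjusted p under 0.05, and 1, Gcg, in DESeq2), with log2 fold changes from -0.93 to 0.60 and a median of -0.07. Ins1 was 49400 to 123530 CPM in sham 46 to 50 and 63762 to 133160 in the other 5, with a log2 fold change of 0.05 ± 0.28 that was -0.25 under library totals. Ins2 gave 0.60 ± 0.21 (adjusted p = 0.23). Mean levels of Iapp, the amyloid peptide co-secreted with insulin, were 20909 ± 6324 and 17916 ± 2062 CPM, those of the beta-cell glucose transporter Slc2a2 2522 ± 361 and 2301 ± 271 CPM, and those of the beta-cell factors Pdx1 79.4 ± 14.3 and 81.3 ± 16.2 CPM and Mafa 172 ± 39.2 and 168 ± 41.9 CPM (SD, n = 5 each). Somatostatin (Sst) averaged 1007 ± 341 and 1188 ± 207 CPM, pancreatic polypeptide (Ppy) 851 ± 151 and 861 ± 455, and the granin Chga 624 ± 220 and 628 ± 68.4, all with overlap.

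Gcg, the glucagon gene of the islet's alpha cells, was 11270, 8497, 6569, 11742 and 10978 CPM against 20022, 8285, 22301, 22827 and 19752. The log2 fold change of Gcg was -0.93 ± 0.26 (adjusted p = 0.123), and it was -1.11 (0.019) without sham 22, the 1 library of its set inside the other range. The list of alpha, delta and PP cell genes had a median of -0.56 over its 12 genes tested, and that of beta-cell genes a median of -0.06 over 26. In edgeR 1 gene, on both lists, was called lower, beside 0.0998% of all genes, and 0 were called higher. At an unadjusted p under 0.05, the first list had 6 lower and 0 higher, and the second 3 lower and 2 higher. Beside these stand 1786 of all 13020 genes in both directions. DESeq2 called 3 lower on the first list and 1 on the second.

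The lower genes were few and changed by small amounts. Sema3e, a guidance ligand, was 5.87 to 8.77 against 9.69 to 21.6 CPM, with no overlap (1.36% of all genes had all 5 libraries below all 5 others), and fell by 1.12 ± 0.22 on the log2 scale (adjusted p = 0.016). Ryr2, a calcium release channel, fell by 0.77 ± 0.17, Cdh2 (N-cadherin) by 0.54 ± 0.12, Zdbf2 by 0.69 ± 0.11, Epb41l3, a membrane skeleton protein, by 0.68 ± 0.15, Dnah9, an axonemal dynein, by 0.64 ± 0.14, the kinase Wnk3 by 0.84 ± 0.18 and Dennd2a, a Rab exchange factor, by 0.82 ± 0.17. The number of lower genes depended on single libraries: it was 13 with all 10, 39 without sham 46, 32 without sham 22, and 3 to 7 without sham 24, 48, 49, 73 or 74. Among the named ones, Zdbf2 passed with each library left out in turn, Sema3e missed without sham 48 or 73 (adjusted p up to 0.055), and Ryr2, Cdh2, Epb41l3, Dnah9, Wnk3 and Dennd2a missed without 6 to 9 of the 10 libraries (up to 0.155).

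Duct markers as a list had similar summed levels in both sets, 659 to 859 CPM in sham 46 to 50 and 634 to 830 in the other 5. The sum rests mostly on Krt8, Krt7, Krt18 and Epcam, which averaged 97.4 to 233 CPM in sham 46 to 50. It therefore says little about duct genes with low counts. Of 16 tested, 13 would have passed the filter on low counts in the other 5 libraries alone. The 2 called higher were not among those 13, so their calls are no evidence for the list: Muc1, an apical mucin, at 8.36 to 16.8 against 0.797 to 3 CPM (log2 2.73 ± 0.36, edgeR adjusted p = 0.00121), and Spp1, osteopontin, at 3.48 to 20.2 against 0.632 to 2.59 CPM (2.14 ± 0.48, adjusted p = 0.0441). The list's median log2 fold change was 0.11. At an unadjusted p under 0.05, 5 of the 16 were higher and 0 lower, beside 1786 of all 13020 genes in both directions. DESeq2 called 3 higher. Cftr, a chloride channel, averaged 4.32 against 1.48 CPM, with 1.54 ± 0.36 (edgeR adjusted p = 0.053) and overlap between the sets. Krt19, a duct keratin, averaged 20.9 ± 6.2 and 20.5 ± 10.0 CPM. Spp1 was highest in sham 46 at 20.2 CPM, and its call was lost without sham 21, 22, 24, 48, 49, 73 or 74 (adjusted p up to 0.104).

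For other cell types, 0 of 14 stellate and fibroblast, 10 endothelial, 12 macrophage, 3 lymphocyte, 3 red cell, 3 glial, 1 adipocyte and 2 mesothelial genes tested were called in edgeR, and DESeq2 called 0 of these too; 1 macrophage gene had an unadjusted p under 0.05. Summed levels of the stellate and fibroblast list were 579 to 1589 CPM against 641 to 884, of the endothelial list 529 to 1103 against 664 to 889, and of the macrophage list 90.9 to 278 against 101 to 155 CPM. Some genes of these lists were far higher in sham 46 than in any other sham library, such as Col3a1 (435 CPM), Vwf (151 CPM) and C1qa (34.6 CPM). The sums were not taken without sham 46. Markers of neutrophils (none tested) summed to 0.214 to 1.96 and 0.369 to 4.78 CPM, with Mpo at 0 in all 10 libraries. Immediate early, stress, heat shock, hypoxia, interferon, cell cycle, cholesterol and respiratory chain lists had 0 called genes in edgeR as well. At an unadjusted p under 0.05, the respiratory chain list had 6 of 21 genes higher, the hypoxia list 3 higher and 1 lower of 16, and the cholesterol list 1 higher and 3 lower of 15. Beside these stand 1786 of all 13020 genes tested, counting both directions. DESeq2 called 2 respiratory chain, 1 hypoxia and 1 interferon gene higher and 1 cholesterol gene lower.

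The Reg genes, secreted C-type lectins that acinar cells make in injury, were high in sham 46 and, in its own set, in sham 21. Reg1a was 4808, 925, 1076, 1910 and 721 CPM in sham 46 to 50 and 844, 41.2, 34.7, 11.9 and 10.5 in the other 5. Reg3b was 720, 44, 21.1, 32.3 and 3.76 CPM against 20.8, 2.26, 0.184, 0.506 and 2.4. Sham 46 was 16.35-fold above the next library for Reg3b, and sham 21 lay inside the range of the first set for both genes. Log2 fold changes of Reg1a, Reg3a and Reg3b were 3.32 ± 1.41, 4.61 ± 1.51 and 4.85 ± 1.68, and 0 of the 3 tested were called in edgeR or DESeq2, all 3 with an unadjusted p under 0.05 (edgeR adjusted p = 0.351, 0.238 and 0.262). Of these 3 genes, 2 would have passed the filter on low counts in the other 5 libraries alone. Without sham 46 the log2 fold changes were 2.62, 2.47 and 2.12. Without sham 21, Reg1a passed at 6.26 (adjusted p = 0.00342), and Reg3a and Reg3b gave 6.72 and 6.93 (adjusted p = 0.1 and 0.194).

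The second set joins animals 21, 22 and 24 with 73 and 74, and its parts were also taken alone. Against 21, 22 and 24, 68 genes were higher and 1 lower in sham 46 to 50; against 73 and 74, 31 were higher and 1 lower. These comparisons share sham 46 to 50 and have fewer libraries. Tff2 gave 4.43 and 3.89, Prss1 3.93 and 3.37, and Ctrb1 2.49 and 3.91, the first value of each pair against 21, 22 and 24. Between 73 and 74 and 21, 22 and 24, 0 genes were called in either direction in edgeR, with 296 at an unadjusted p under 0.05.

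The PX libraries also came in runs with different acinar shares, 28.6% ± 12.3 (SD, n = 6) in PX 57 to 70 and 11.3% ± 3.98 (n = 5) in PX 36 to 44, with no library in common with the sham comparison. For that contrast edgeR called 0 genes higher and 0 lower (0% of 13529, with 2051 at an unadjusted p under 0.05), while DESeq2 called 198 higher and 26 lower. Of the 141 genes off the lists that were higher in sham 46 to 50, 140 had a positive log2 fold change in PX 57 to 70, beside 45.1% of the 12773 genes tested in both. Only 90 of the 141 would have passed the filter on low counts in the other 5 sham libraries alone. The direction of the PX contrast was set with the acinar shares known, so the shared sign is a description only. Of the 13 lower genes, 12 were negative there. Tff2 gave 4.19 in sham and 2.50 in PX, Ptger3 3.57 and 1.60, P2rx1 2.89 and 1.77, Cbs 2.74 and 1.70, Phgdh 1.95 and 1.76, Mt2A 3.45 and 1.93, and Hpn 3.27 and 1.42. In the sham fit, Mt2A and Hpn passed the filter on low counts only through sham 46 to 50. Gcg was -0.93 in sham and -0.09 in PX. Prss1 gave 3.68 and 2.07, Amy2a3 3.98 and 1.97, and Ctrb1 2.90 and 2.46.

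**Figure D5:**
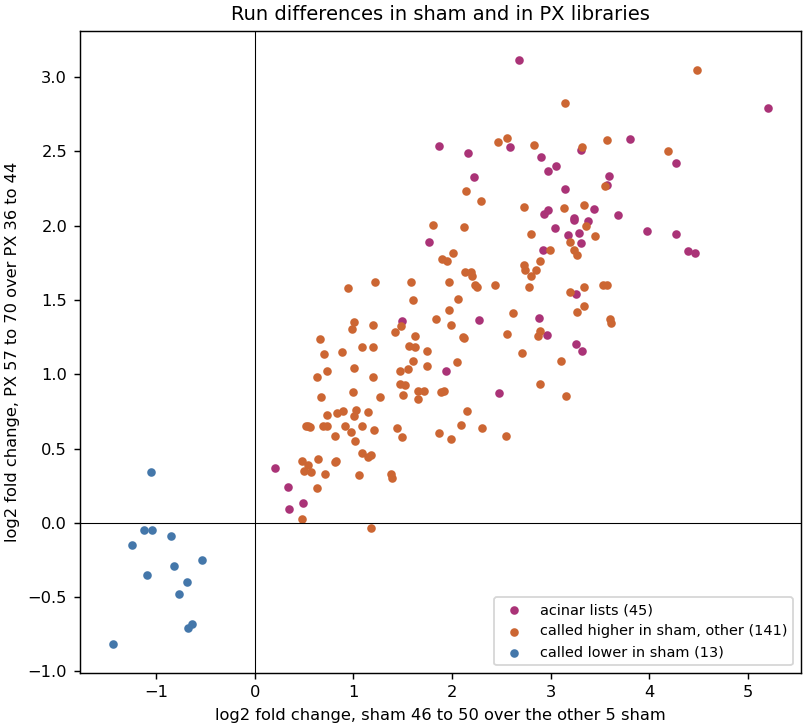
Each point is 1 gene, with its log2 fold change in sham 46 to 50 over the other 5 sham libraries (horizontal) and in PX 57 to 70 over PX 36 to 44 (vertical), for 45 acinar genes, 141 other genes called higher and 13 called lower in sham. Points called higher in sham lie above 0 on the vertical axis with 1 exception, and 12 of the 13 lower genes lie below 0. Of the 141, 90 would have passed the filter on low counts in the other 5 sham libraries alone.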

How the data were processed

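RNA was polyadenylated and libraries were directional, per the labels' protocols. FastQC, Subread, featureCounts and limma are named in the submitters' processing notes, without versions. No source used here gives the genome build, the alignment settings or the strandedness of the counting. The deposited table holds raw whole-number counts for 28914 gene names, in the layout of featureCounts output, per the file headers; the deposited gene length in base pairs was used only for levels per kilobase. Overlapping antisense genes and near-identical copies have uncertain counts.

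The members, sets and lists were chosen with earlier results of these data known. Each count column carries the title of 1 sample. No pair of libraries of a set agreed within counting noise (lowest chi-square per degree of freedom 4.37, sham 73 and 74). Nothing in the labels says how many isolations were done, so p-values measure the spread between these animals only.

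In R 4.3.3, edgeR 4.0.16 filtered low genes with filterByExpr at a minimum count of 10 and a total of 15, scaled by TMM and fitted robust quasi-likelihood models, two-sided, with Benjamini-Hochberg adjustment over all genes tested and a threshold of 0.05. The sham fits used the 10 sham libraries, and the PX fit the 11 PX libraries. TMM-scaled library sizes were used for CPM, and the acinar score used log2 CPM with prior count 2. Library measures used exact permutation of means (scipy 1.17.1). Fits were also run on simulated data, and the outcome is not used here. Named genes were all acinar-list genes, the 10 highest and 10 lowest log2 fold changes off those lists among genes past the threshold that carry a symbol and average 10 CPM or more (9 lower genes met this), the 8 highest slopes by the same rule (7 met it), 16 genes always named, and up to 4 of each list by p. A few of these are left out of the text. Alternatives were other scalings and filters, DESeq2 1.42.0, limma 3.58.1 voom, the acinar score as a covariate, parts of the second set, and each library left out. Leaving out sham 21 and sham 46 together was chosen after seeing the data.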

Additional observations from a re-analysis of the deposited data

Results flagged for a closer look

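Values of 1 library far from the others of its set of 5 were found 13 times in 192 sets examined, and chance flags about 1 in 20. Sham 50 was low for Try10 (38.3 CPM), Rnase1 (34 CPM), Zg16 (436 CPM), P2rx1 (43.6 CPM) and Klk1c9 (201 CPM); it also had the smallest acinar share of its set, 13.4%. Sham 21 was high for Try10 (202 CPM), P2rx1 (21.1 CPM), Reg3a (64.9 CPM) and Gjb2 (1.29 CPM), with the largest acinar share of its set, 6.32%. Sham 22 was low for Slc39a5 (6.91 CPM) and Gcg (8285 CPM). Spp1 was low in sham 73 (0.632 CPM), and Xbp1 was high in sham 74 (180 CPM).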

How the results depend on the processing

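With DESeq2, 298 genes were higher and 86 lower; library totals gave 2193 lower, and leaving out sham 21 and sham 46 gave 256 higher and 37 lower. Other scalings and filters and limma voom stayed within 1.5 times of the main fit's 171 higher and 13 lower. With no filter, however, 17 acinar genes were called in place of 30. The acinar score as a covariate gave 0 and 0, 21, 22 and 24 alone gave 68 and 1, and 73 and 74 alone gave 31 and 1. Leaving out 1 library gave 118 to 212 higher and 3 to 39 lower genes. Slopes above 0 numbered 18 to 56 and slopes below 0 numbered 0 to 1, the 1 without sham 22 or sham 48. PX calls were 198 and 26 with DESeq2, 5 and 2 under library totals, and 0 to 7 and 0 with 1 library left out, the 7 without PX 65. The mitochondrial difference was -1.81 to -1.03 percentage points with 1 library left out, at an adjusted p of 0.0952 each time, the smallest that 4 against 5 allows, and the ribosomal protein difference -0.0166 to 0.0389.

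Under library totals, log2 fold changes reversed for Slc16a10 (-0.10), Hspa5 (-0.16) and Ins1 (-0.25). With 1 library left out Ins1 ran from -0.060 to 0.225, Hspa5 from -0.039 to 0.206 and Gcg in PX from -0.29 to 0.49. Ins1 was -0.054 against 21, 22 and 24, and Slc16a10 -0.032 against 73 and 74. With the score as a covariate, values reversed for Try10 (-3.35), Spink1 (-2.60), Prss2 (-1.65), Slc30a2 (-1.48), Cela3b (-1.11), Prss3 (-0.98), Try5 (-0.82), Tmed6 (-0.57), Hsd17b13 (-0.51), Ctrb1 (-0.44), Sycn (-0.41), Ctrc (-0.40), Gatm (-0.34), Cpb1 (-0.34), Cela2a (-0.31), Gjb1 (-0.23), Tex15 (-0.18), Psat1 (-0.13), Erp27 (-0.087), Clps (-0.080), Cbs (-0.055), Hspa5 (-0.032) and Gp2 (-0.0029); the sets do not overlap on the score, and the cause was not tested.

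No paired analysis was possible because the sets share no animal number. Total counts of 4695195 to 11266015 per library limit low genes such as Ptf1a and Mt2A.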

Other observations

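Some further genes off the lists, chosen after their values were seen and so a description only, were higher in sham 46 to 50. Gjb1 and Gjb2, the connexins that couple acinar cells, averaged 8.46 against 0.729 CPM and 4.31 against 0.561 CPM, with log2 fold changes of 3.36 ± 0.57 and 2.78 ± 0.46; both, and Slc30a2, passed the filter on low counts only through sham 46 to 50. Myo5c, a myosin of secretory granules, rose by 2.55 ± 0.26, Rab26, a GTPase of secretory granules, by 1.62 ± 0.31, and Klk1c9, a kallikrein copy, by 2.20 ± 0.28. The zinc transporter Slc30a2 rose by 2.997 ± 0.66, the glutamine transporter Slc38a3 by 1.97 ± 0.27, the glutaminase Gls2 by 2.11 ± 0.25, and Eif2ak3 (PERK), a sensor of unfolded proteins, by 0.50 ± 0.11. Calls for Slc30a2 and Eif2ak3 were lost without each of 8 and 6 single libraries (adjusted p up to 0.138 and 0.0902).

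Sham 46 was the library furthest from the rest in genes of other kinds. Fibronectin (Fn1) was 70.3 CPM in sham 46 against 4.01 to 11.8 in the other 9, the collagen Col1a1 was 147 against 9.53 to 30.2, the endothelial gene Vwf 151 against 25.8 to 48.9, the macrophage complement gene C1qa 34.6 against 7.08 to 11.2, and the interferon gene Ifi27 143 against 19.6 to 40.3. Aldh1a3 was 28.1 CPM in sham 46 and 1.96 to 7.04 in the other 9.

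Sham 49 and sham 50 shared 18 genes at least 2-fold below the other 8 libraries and 0 above. Emb, an adhesion protein, was 5.96 and 7.24 CPM in them against 36 to 69 in the other 8. Cpe, the carboxypeptidase that trims prohormones, was 944 and 1313 CPM against 3485 to 5275, and Hnrnpa1, an RNA-binding protein, 37.7 and 40.8 against 105 to 130.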
